A study of Homo sapiens with 8 samples.

Results

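Chemokines, cytokines and genes of the NF-kB pathway were followed in human liver cancer cells in which SMARCB1 had been stably knocked down and in control cells. SMARCB1 encodes a subunit found in the canonical SWI/SNF complexes, which move nucleosomes to open or close chromatin. The list held 42 genes chosen by symbol, with earlier results of these data known, among the 20044 genes named on the array. Of these, 40 had a named probe and 36 were bright enough to be tested, among 12411 genes tested in all. CXCL3, IL11, TLR2 and TLR4 lay below the brightness filter, and CSF2 and BIRC3 were not analysed here because no probe carried their names. Each gene was represented by its brightest probe.

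The 4 groups, with 2 arrays each, were SK-Hep1 cells with SMARCB1 knockdown (arrays 11 and 12), SK-Hep1 control cells (arrays 1 and 2), Huh7 cells with SMARCB1 knockdown (arrays 3 and 4) and Huh7 control cells (arrays 1 and 2). SK-Hep1 and Huh7 are established human lines labelled as liver cancer lines. Per the labels, cells received short hairpin RNA and were selected with 1.25 µg/mL puromycin in all 4 groups. GFP stands in the titles of the Huh7 controls only, and whether both lines received the same control construct is not stated. The titles of both Huh7 knockdown arrays also hold the number 11, and no label used here says whether 11 and 12 stand for different hairpins. The descriptions give both arrays of a group 1 replicate number, and no label mentions separate cultures. The p-values thus reflect the spread between these arrays alone, which may be technical.

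NF-kB is a family of transcription factors made of paired subunits (RELA, RELB, REL and the products of NFKB1 and NFKB2) that inhibitors of the IkB family hold back in resting cells. Signals from cytokine receptors and Toll-like receptors run through adaptors such as MYD88 to kinases that remove the inhibitors, and the freed subunits switch on chemokine and cytokine genes together with genes that shut the pathway down again, such as NFKBIA and TNFAIP3. In liver, chemokines and cytokines from this pathway draw neutrophils and monocytes into the tissue, and IL-6 drives the acute phase response of hepatocytes.

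SMARCB1 itself was lower in the knockdown arrays of both lines. Its log2 intensity was 9.30 and 9.67 in SK-Hep1 knockdown cells, against 10.68 and 10.61 in SK-Hep1 controls, which left 44.7% of the control signal. It was 9.22 and 9.27 in Huh7 knockdown cells, against 10.84 and 10.94 in Huh7 controls, which left 32.0%. The difference was -1.16 ± 0.107 (SE) in SK-Hep1 (limma, adjusted p = 0.000113) and -1.65 ± 0.107 in Huh7 (adjusted p = 3.48e-06). These 2 differences were themselves unequal by 0.48 (adjusted p = 0.035), a call that was lost in most of the fits that left out an array. The deposited values hold almost no difference between the lines: the SD over genes of the line means' difference was 0.0290, and 0 genes had line means over 0.5 apart on the log2 scale. Levels were therefore not compared between SK-Hep1 and Huh7, the cell line labels could not be checked against markers, and whether differences within a line were also rescaled is unknown. The brightness filter used the mean of all 8 arrays, so a gene above it need not be expressed in both lines.

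Knockdown of SMARCB1 went with a mixed pattern of these genes in SK-Hep1 and with higher signal of most of them in Huh7. In SK-Hep1, 9 of 36 members rose and 9 fell (limma, two-sided, Benjamini-Hochberg adjusted p under 0.05 over all genes tested), where 8.31% of all genes tested rose and 8.54% fell (16.8% together). In Huh7, 23 of 36 rose and 2 fell, where 19.4% of all genes tested rose and 19.5% fell (38.9% together). The median log2 difference of the 36 members was -0.04 in SK-Hep1, against -0.01 over all genes tested, and 0.37 in Huh7, against 0.00 over all genes tested. Every difference below is knockdown minus control on the log2 scale with its SE, and every array value is a log2 intensity. Whether groups overlap only describes 2 arrays against 2, and the share of all genes with separate groups is not given here.

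**Figure D1:**
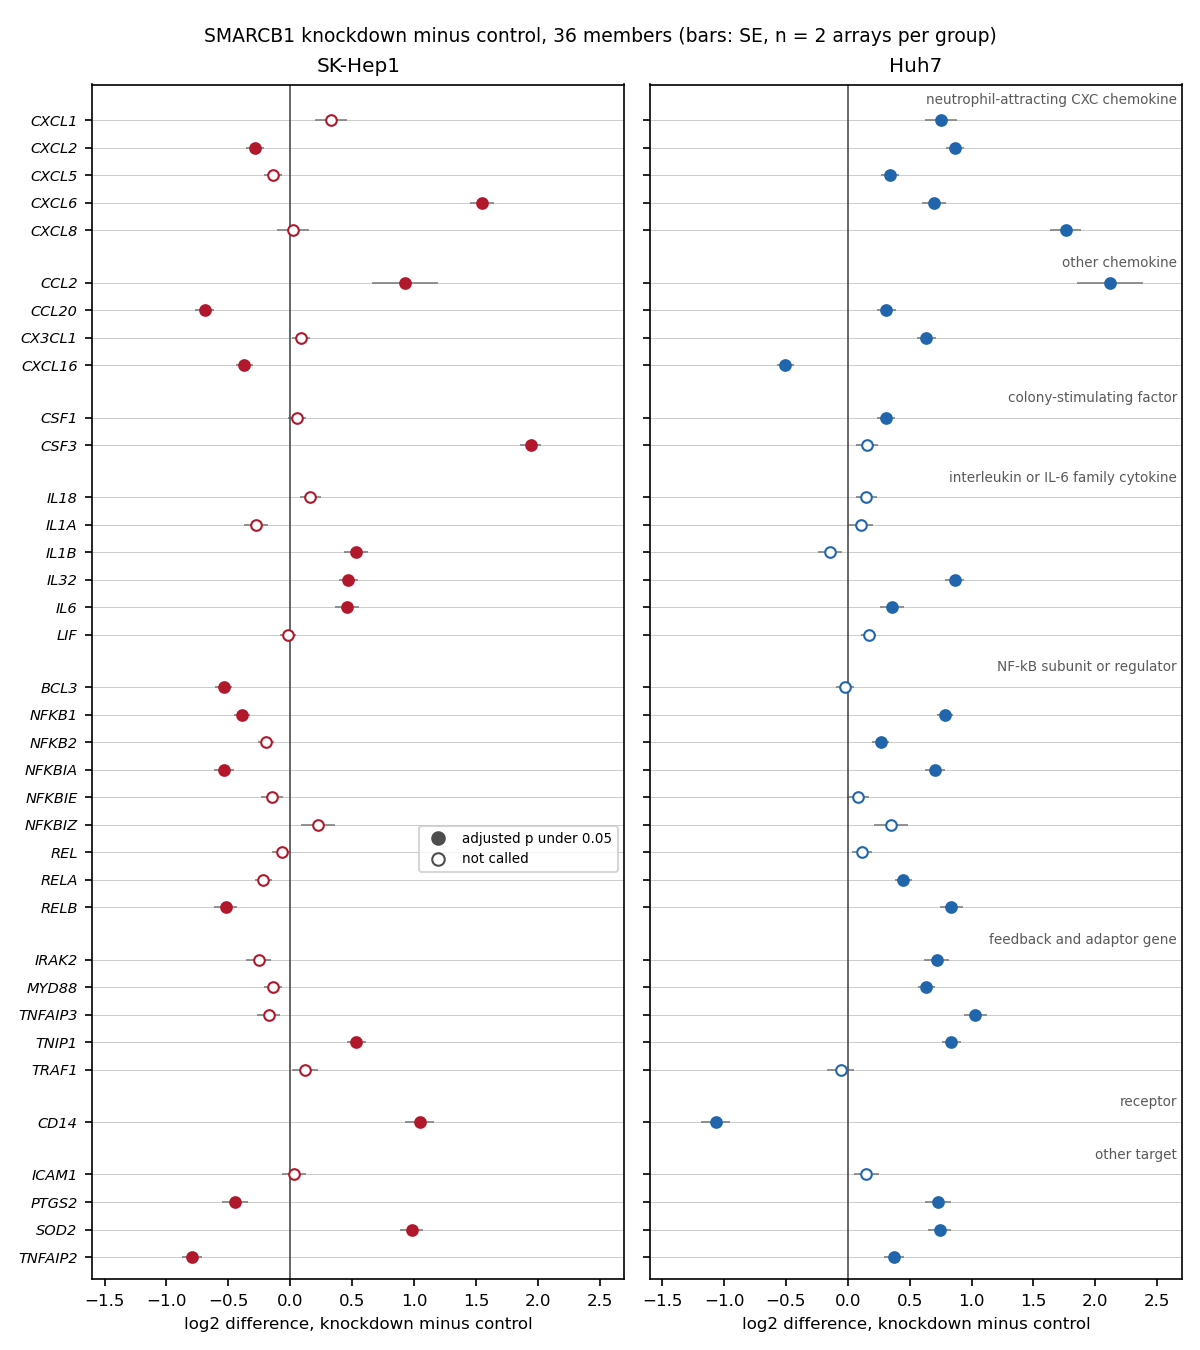
Log2 difference, knockdown minus control, of the 36 tested members in SK-Hep1 (left) and Huh7 (right), grouped by role, with bars for the SE (2 arrays per group) and filled points for an adjusted p under 0.05. In SK-Hep1 the filled points lie on both sides of 0, 9 to the right and 9 to the left, while in Huh7 23 lie to the right and 2, CD14 and CXCL16, to the left.

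Calls ran the same way in both lines for some members and opposite ways for others. There were 6 members that rose in both lines (CCL2, CXCL6, IL6, IL32, TNIP1 and SOD2), where 2.27% of all genes tested did so. CXCL16 alone fell in both lines, where 2.30% of all genes tested did so. There were 7 members that fell in SK-Hep1 and rose in Huh7 (CCL20, CXCL2, NFKB1, NFKBIA, RELB, TNFAIP2 and PTGS2), where 2.16% of all genes tested did so. CD14 alone rose in SK-Hep1 and fell in Huh7, a pattern of 2.12% of all genes tested. In a test of the difference between the lines (SK-Hep1 difference minus Huh7 difference, limma), 4 members were higher and 18 lower, where 15.2% of all genes tested were higher and 16.1% lower (31.3% together).

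**Figure D2:**
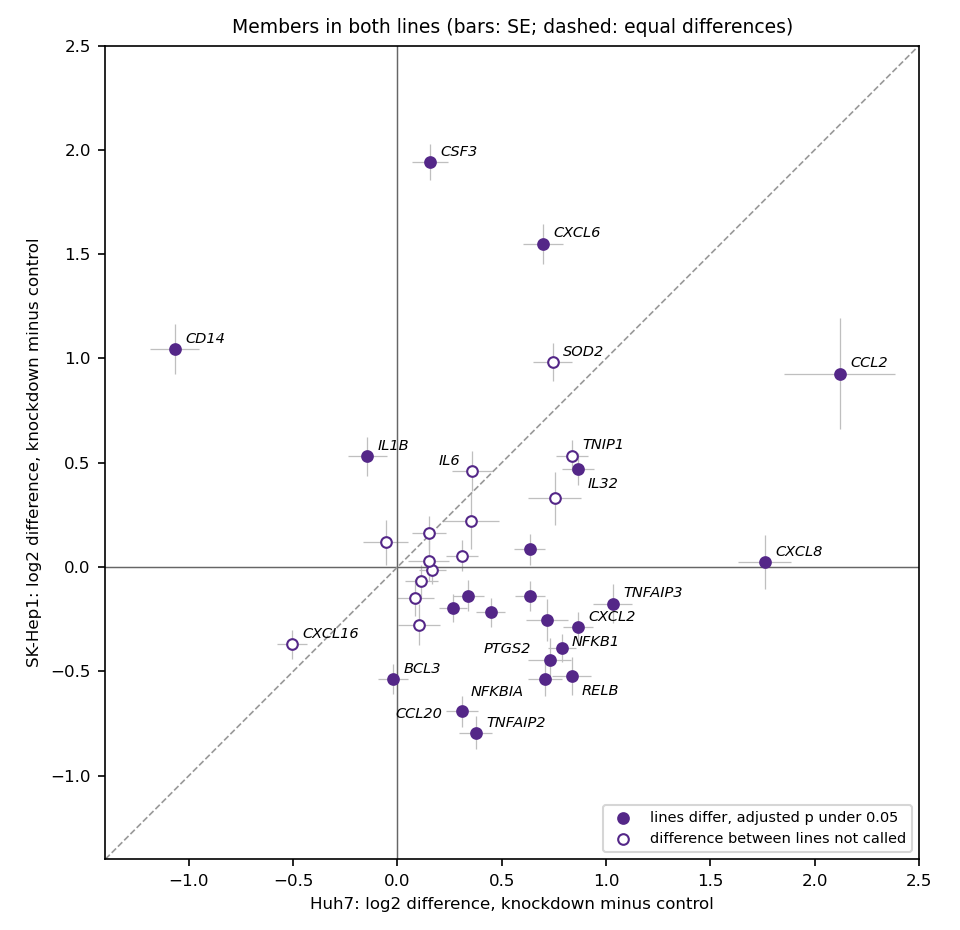
Log2 difference, knockdown minus control, of each of the 36 tested members in Huh7 (x axis) and SK-Hep1 (y axis), with bars for the SE, a dashed line where the differences are equal and filled points where the lines differed at an adjusted p under 0.05. CSF3, CXCL6, IL1B and CD14 are the 4 filled points above the dashed line, and the other 18 filled points lie below it.

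The promoters of these genes were read for short words of the kind that NF-kB dimers and AP-1 bind, because the list is named for NF-kB targets. RefSeq promoters of GRCh38.p14, from 250 bases before to 50 bases after the annotated start, were given for 33 of the 42 members, and the members without one were CCL2, CXCL16, CX3CL1, CSF1, CSF3, IL18, LIF, NFKBIE and RELB. The kappaB-like words were GGNNTTTCC and GGNNTTCCC, the AP-1-like word was TGANTCA, and all were searched on both strands. The 2 kappaB-like words can overlap at 1 place, AP-1-like words read the same on both strands, and a gene was counted once however many words it held. A kappaB-like word stood in the promoter of 22 of 33 members (66.7%), against 17.5% of the 9991 tested genes with a promoter and 14.2% of all 27305 genes in the table. The AP-1-like word stood in 4 of 33 members (12.1%), against 7.04% of tested genes and 9.37% of all genes. The members were chosen as genes of this pathway, so a high share of kappaB-like words among them may follow from that choice. Similar promoters of some CXC chemokines were counted as separate genes. A match describes the letters only and does not show that a factor binds there.

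The stretches below show the words in the neutrophil-attracting CXC chemokines, which lie near each other on chromosome 4 and carry 1 shared word, GGAATTTCC, between 77 and 91 bases before the start. Capitals mark the matched words, each stretch is written 5′ to 3′ on the gene's strand, and those of CXCL1, CXCL2, CXCL3 and CXCL5 were chosen after their values were seen. The positions are chr4:73836574-73836612 (plus strand) for CXCL6, chr4:73740417-73740501 (plus) for CXCL8, chr4:73869300-73869363 (plus) for CXCL1, chr4:74099225-74099287 (minus) for CXCL2, chr4:74038719-74038782 (minus) for CXCL3 and chr4:73998744-73998782 (minus) for CXCL5.
CXCL6: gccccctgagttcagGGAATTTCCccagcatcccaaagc
CXCL8: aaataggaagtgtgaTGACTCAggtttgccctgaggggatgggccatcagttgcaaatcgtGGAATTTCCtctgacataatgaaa
CXCL1: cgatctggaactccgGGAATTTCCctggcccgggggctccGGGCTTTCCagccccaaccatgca
CXCL2: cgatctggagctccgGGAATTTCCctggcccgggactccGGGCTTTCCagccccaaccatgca
CXCL3: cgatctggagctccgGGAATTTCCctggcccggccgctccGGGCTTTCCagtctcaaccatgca
CXCL5: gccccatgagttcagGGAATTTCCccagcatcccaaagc
CXCL8 alone of these also holds the AP-1-like word in this window. The stretches of CXCL1, CXCL2 and CXCL3 are nearly the same throughout, as are those of CXCL5 and CXCL6.

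The next stretches come from members that rose in both lines (IL6, IL32 and TNIP1), from TNFAIP3, with the third largest rise in Huh7, from CD14, with the third largest rise in SK-Hep1, and from CCL20, NFKB1 and NFKBIA, chosen after their values were seen because they fell in SK-Hep1 and rose in Huh7. The positions are chr7:22727113-22727151 (plus) for IL6, chr16:3065290-3065358 (plus) for IL32, chr5:151081052-151081090 (minus) for TNIP1, chr6:137867177-137867227 (plus) for TNFAIP3, chr5:140633377-140633413 (minus) for CD14, chr2:227813747-227813786 (plus) for CCL20, chr4:102501296-102501334 (plus) for NFKB1 and chr14:35404807-35404845 (minus) for NFKBIA.
IL6: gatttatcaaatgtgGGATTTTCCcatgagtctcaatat
IL32: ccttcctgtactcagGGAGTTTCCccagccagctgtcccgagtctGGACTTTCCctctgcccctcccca
TNIP1: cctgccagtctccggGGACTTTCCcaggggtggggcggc
TNFAIP3: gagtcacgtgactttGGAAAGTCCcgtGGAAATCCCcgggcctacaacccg
CD14: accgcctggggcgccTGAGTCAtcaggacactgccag
CCL20: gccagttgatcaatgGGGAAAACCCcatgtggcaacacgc
NFKB1: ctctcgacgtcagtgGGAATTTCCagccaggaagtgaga
NFKBIA: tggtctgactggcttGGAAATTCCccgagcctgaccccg
CD14 is shown for its AP-1-like word, since its window holds no kappaB-like word, and the promoters of SOD2 hold no match to any of these words. In CCL20 a pair of kappaB-like words overlap, shifted by 1 base. NFKB1, NFKBIA and TNIP1 each hold a kappaB-like word at another place that is not shown.

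Members with a kappaB-like word did not move in 1 direction in both lines. Of 19 tested members with the word, 4 rose and 6 fell in SK-Hep1, with a median difference of -0.07 and a range of -0.79 to 1.55. In Huh7, 14 of the same 19 rose and 0 fell, with a median of 0.37 and a range of -0.06 to 1.76. The lowest of these was that of TRAF1 (adjusted p = 0.709). Of 8 tested members whose promoters hold no such word, 3 rose and 1 fell in SK-Hep1 (median -0.18), and 5 rose and 1 fell in Huh7 (median 0.54). For all genes tested, 8.31% rose and 8.54% fell in SK-Hep1, and 19.4% rose and 19.5% fell in Huh7. Among all genes that rose in Huh7 and have a promoter, 19.3% held the word, and among those that fell in Huh7 17.9% did. In SK-Hep1 the word stood in 17.7% of the genes that rose and in 21.4% of those that fell.

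**Figure D3:**
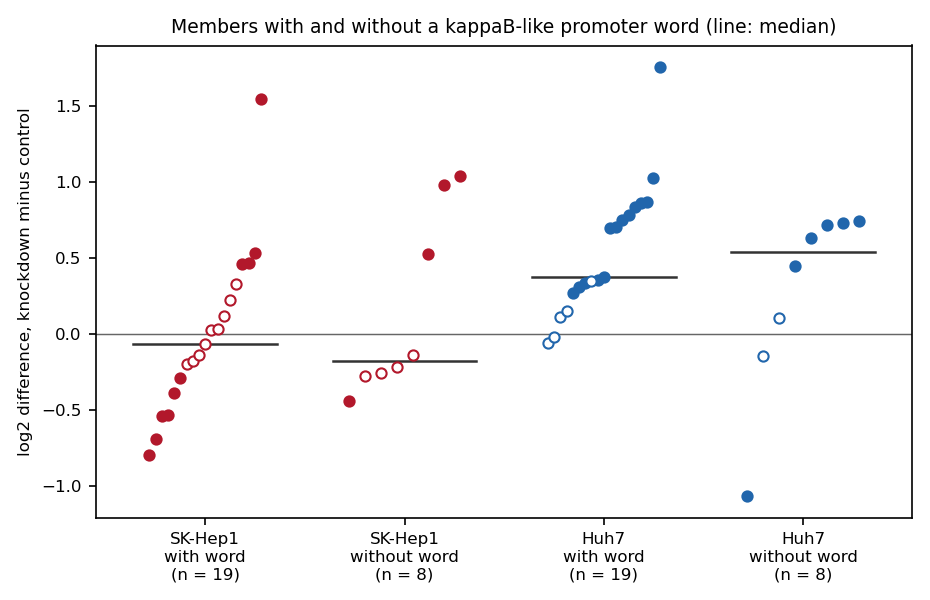
Log2 difference, knockdown minus control, of tested members with a kappaB-like word in the promoter (19 genes) and without one (8 genes), in SK-Hep1 and Huh7, with filled points for an adjusted p under 0.05 and lines for the medians. In Huh7 the medians are 0.37 with the word and 0.54 without it, and in SK-Hep1 they are -0.07 with the word and -0.18 without it.

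The neutrophil-attracting CXC chemokines, ligands of CXCR1 and CXCR2, were split in SK-Hep1, where 1 of 5 tested rose and 1 fell, and rose in Huh7, 5 of 5. Of all genes tested, 8.31% rose and 8.54% fell in SK-Hep1, and 19.4% rose in Huh7. CXCL8, the main human neutrophil attractant, had log2 intensities of 13.93 and 14.38 in SK-Hep1 knockdown cells, against 14.07 and 14.18 in SK-Hep1 controls, a difference of 0.02 ± 0.128 (adjusted p = 0.916). In Huh7 it was 15.05 and 14.90 in knockdown cells, against 13.29 and 13.14 in controls, a difference of 1.76 ± 0.128 or 3.39-fold (adjusted p = 6.56e-06). The SK-Hep1 groups overlapped, with the controls between the knockdown arrays, while the Huh7 groups stood well apart. The difference between the lines was -1.73 ± 0.181 (adjusted p = 0.000121), the most negative of the 36 members.

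CXCL6 rose in both lines and most in SK-Hep1, at 12.23 and 12.55 in knockdown cells, against 10.79 and 10.89 in controls (1.55 ± 0.0966, 2.93-fold, adjusted p = 8.55e-06). In Huh7 it was 12.04 and 11.99 in knockdown cells, against 11.30 and 11.34 in controls (0.70 ± 0.0966, 1.62-fold, adjusted p = 0.00038). Every knockdown array was above every control array of its line, and the rise was larger in SK-Hep1 by 0.85 ± 0.137 (adjusted p = 0.00136). CXCL2 had opposite calls in the lines. It was 10.49 and 10.46 in SK-Hep1 knockdown cells, against 10.83 and 10.70 in controls (-0.29 ± 0.0719, adjusted p = 0.0222). In Huh7 CXCL2 was 10.995 and 10.95 in knockdown cells, against 10.07 and 10.14 in controls (0.87 ± 0.0719, 1.82-fold, adjusted p = 1.51e-05). Neither pair of groups overlapped, although the SK-Hep1 fall was not called without control array 1 (adjusted p = 0.133) or without knockdown array 12 (adjusted p = 0.0579).

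CXCL1 was 11.94 and 12.31 in SK-Hep1 knockdown cells, against 11.72 and 11.86 in controls (0.33 ± 0.126, adjusted p = 0.0994). In Huh7 it rose, at 12.29 and 12.30 in knockdown cells, against 11.39 and 11.69 in controls (0.75 ± 0.126, 1.69-fold, adjusted p = 0.00116). Both lines had all knockdown arrays above the controls, and the SK-Hep1 difference was called when knockdown array 11 was left out (0.51, adjusted p = 0.016). CXCL5 was 9.02 and 9.0 in SK-Hep1 knockdown cells, against 9.13 and 9.16 in controls (-0.14 ± 0.0743, adjusted p = 0.228). In Huh7 CXCL5 rose, at 9.45 and 9.28 in knockdown cells, against 9.02 and 9.03 in controls (0.34 ± 0.0743, adjusted p = 0.0052, or 0.061 without knockdown array 3). Its groups were apart in both lines, with the knockdown arrays low in SK-Hep1 and high in Huh7. CXCL3, with a mean of 6.88 over the 8 arrays, was under the filter of 7.003 and was not tested; its differences were -0.08 in SK-Hep1 and 0.24 in Huh7. CXCL1, CXCL2 and CXCL3 are close copies of each other, and a probe of one may read another, so values of single members of this trio are uncertain.

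**Figure D4:**
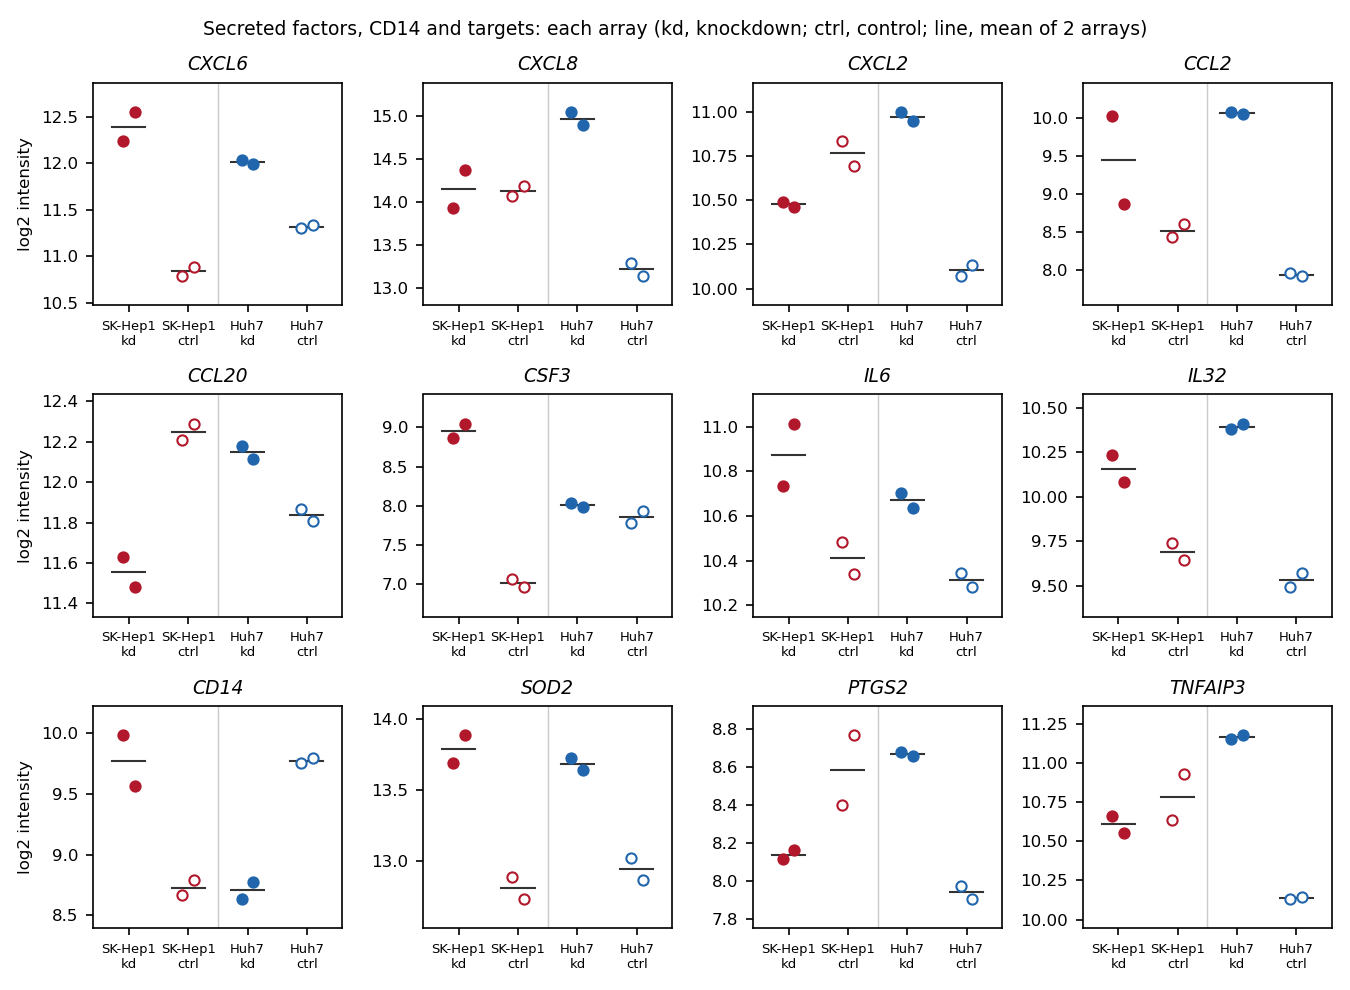
Log2 intensity on each array of 12 members, chosen among ligands, CD14 and other targets (filled points for knockdown and open points for control, SK-Hep1 in red and Huh7 in blue, lines for the mean of 2 arrays). CSF3 stands furthest apart in SK-Hep1, by 1.94, and CCL2 and CXCL8 in Huh7, by 2.12 and 1.76.

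Among the other chemokines, CCL2, which attracts monocytes, rose in both lines and had the largest rise of the 36 tested members in Huh7. It was 10.02 and 8.86 in SK-Hep1 knockdown cells, against 8.43 and 8.60 in controls (0.93 ± 0.267, adjusted p = 0.0387). In Huh7 CCL2 was 10.07 and 10.04 in knockdown cells, against 7.96 and 7.92 in controls (2.12 ± 0.267, 4.35-fold, adjusted p = 0.000218). The groups did not overlap in either line, but the SK-Hep1 value rests mainly on knockdown array 11. The difference was 0.35 without that array and 1.51 without knockdown array 12, and the call was lost in 6 of the 8 fits that left out an array. The difference between the lines (-1.19 ± 0.377, adjusted p = 0.0354) was lost in 6 of these fits as well, and was -0.61 without knockdown array 12.

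CCL20, which attracts CCR6-bearing lymphocytes and dendritic cells, fell in SK-Hep1 and rose in Huh7. It was 11.63 and 11.48 in SK-Hep1 knockdown cells, against 12.21 and 12.29 in controls (-0.69 ± 0.0758, 1.62-fold lower, adjusted p = 0.000324). In Huh7 CCL20 was 12.18 and 12.12 in knockdown cells, against 11.87 and 11.81 in controls (0.31 ± 0.0758, adjusted p = 0.00902). Groups were separate in both lines, and the Huh7 rise was not called without control array 2 (adjusted p = 0.0735) or knockdown array 3 (adjusted p = 0.0686). CX3CL1, a membrane-bound chemokine that can be shed, was 8.71 on both SK-Hep1 knockdown arrays, against 8.56 and 8.69 in controls (0.09 ± 0.0747, adjusted p = 0.465). In Huh7 CX3CL1 rose, at 9.05 and 9.10 in knockdown cells, against 8.38 and 8.50 in controls (0.63 ± 0.0747, 1.55-fold, adjusted p = 0.000143). CXCL16, the other membrane-bound chemokine of the list, was the only tested ligand that fell in both lines. It fell to 11.35 and 11.48 in SK-Hep1 knockdown cells, against 11.78 and 11.79 in controls (-0.37 ± 0.0706, adjusted p = 0.00645). In Huh7 it fell to 11.46 and 11.39 in knockdown cells, against 11.92 and 11.94 in controls (-0.51 ± 0.0706, 1.42-fold lower, adjusted p = 0.000401). The fall was 0.13 ± 0.0998 smaller in SK-Hep1, which was not called (adjusted p = 0.341).

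CSF3, or G-CSF, which drives the production of neutrophils, had the largest rise of the 36 tested members in SK-Hep1, at 8.86 and 9.04 in knockdown cells, against 7.06 and 6.96 in controls (1.94 ± 0.0856, 3.84-fold, adjusted p = 1.68e-06). In Huh7 it was 8.04 and 7.98 in knockdown cells, against 7.78 and 7.93 in controls (0.15 ± 0.0856, adjusted p = 0.176). The SK-Hep1 controls lay at the filter, which limits how far that fold can be read, and the lines differed by 1.79 ± 0.121 (adjusted p = 9.8e-06). CSF1, the macrophage growth factor, had overlapping groups in SK-Hep1, at 7.42 and 7.49 in knockdown cells, against 7.43 and 7.37 in controls (0.05 ± 0.0746, adjusted p = 0.655). In Huh7 CSF1 rose, at 7.54 and 7.69 in knockdown cells, against 7.32 and 7.28 in controls (0.31 ± 0.0746, adjusted p = 0.00854). That call was lost without control array 2 (adjusted p = 0.0654) or knockdown array 4 (adjusted p = 0.0901), and the difference between the lines was not called for CSF1 (-0.25 ± 0.106, adjusted p = 0.093).

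Of the 6 tested interleukins and IL-6 family cytokines, 3 rose in SK-Hep1 and 2 in Huh7, where 8.31% and 19.4% of all genes tested rose. IL6 itself was 10.73 and 11.01 in SK-Hep1 knockdown cells, against 10.48 and 10.34 in controls (0.46 ± 0.0955, adjusted p = 0.00967). In Huh7 it was 10.70 and 10.64 in knockdown cells, against 10.34 and 10.28 in controls (0.36 ± 0.0955, adjusted p = 0.0137). No groups overlapped, but the call was lost without SK-Hep1 control array 2 (adjusted p = 0.0731) and, in Huh7, without any of control array 1, control array 2 or knockdown array 3 (adjusted p = 0.0512, 0.0882 and 0.0826). IL32, a cytokine found in many human epithelial cells, was 10.24 and 10.08 in SK-Hep1 knockdown cells, against 9.74 and 9.64 in controls (0.47 ± 0.077, adjusted p = 0.00326). In Huh7 IL32 was 10.38 and 10.41 in knockdown cells, against 9.49 and 9.57 in controls (0.86 ± 0.077, 1.82-fold, adjusted p = 2.49e-05). The larger rise of IL32 in Huh7 (-0.40 ± 0.109, adjusted p = 0.0198) was not called in 4 of the 8 fits that left out an array.

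IL1B, a fever-inducing cytokine of early inflammation, rose in SK-Hep1, at 11.03 and 11.12 in knockdown cells, against 10.55 and 10.54 in controls (0.53 ± 0.0947, 1.44-fold, adjusted p = 0.00465). In Huh7 it was 10.61 and 10.49 in knockdown cells, against 10.55 and 10.84 in controls, with overlapping groups (-0.14 ± 0.0947, adjusted p = 0.252). The lines differed by 0.67 ± 0.134 (adjusted p = 0.00427). IL18 was 13.73 and 13.78 in SK-Hep1 knockdown cells, against 13.51 and 13.68 in controls, and IL1A, IL18 and LIF were called in neither line. Their differences lay between -0.28 and 0.16 in SK-Hep1 and between 0.10 and 0.17 in Huh7. IL11, below the filter at a mean of 6.84, had untested differences of 0.13 in SK-Hep1 and 0.16 in Huh7.

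Of 9 tested NF-kB subunits and regulators, 0 rose and 4 fell in SK-Hep1 (median -0.22), while 5 rose and 0 fell in Huh7 (median 0.35). At an unadjusted p under 0.05 in limma, still 0 were higher in SK-Hep1 and 0 lower in Huh7. The share of all genes at that unadjusted threshold is not given here. At the adjusted threshold, 8.31% of all genes tested rose and 8.54% fell in SK-Hep1, and 19.4% rose and 19.5% fell in Huh7. NFKB1, NFKBIA and RELB fell in SK-Hep1 and rose in Huh7, as did 2.16% of all genes tested. The difference between the lines was negative and called for 6 of the 9, where 16.1% of all genes tested were lower. NFKB1 was 11.75 and 11.69 in SK-Hep1 knockdown cells, against 12.15 and 12.07 in controls (-0.39 ± 0.0671, adjusted p = 0.00403). In Huh7 NFKB1 was 12.30 and 12.34 in knockdown cells, against 11.53 and 11.54 in controls (0.79 ± 0.0671, 1.72-fold, adjusted p = 1.88e-05). The 2 groups of each line stood apart, the knockdown arrays low in SK-Hep1 and high in Huh7.

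RELB, a subunit of the non-canonical pathway, followed the same order. It was 8.74 and 8.53 in SK-Hep1 knockdown cells, against 9.10 and 9.22 in controls (-0.52 ± 0.0931, adjusted p = 0.00463). In Huh7 RELB was 9.36 and 9.26 in knockdown cells, against 8.39 and 8.56 in controls (0.83 ± 0.0931, 1.78-fold, adjusted p = 0.000103). NFKBIA, which encodes IkB-alpha and is itself an NF-kB target, was likewise low in SK-Hep1 and high in Huh7 after knockdown. It was 13.03 and 12.88 in SK-Hep1 knockdown cells, against 13.44 and 13.54 in controls (-0.54 ± 0.0811, 1.45-fold lower, adjusted p = 0.00202). In Huh7 NFKBIA was 13.61 and 13.52 in knockdown cells, against 12.92 and 12.80 in controls (0.71 ± 0.0811, 1.63-fold, adjusted p = 0.00012). The difference between the lines was -1.18 for NFKB1, -1.36 for RELB and -1.24 for NFKBIA (adjusted p = 2.25e-05, 7.79e-05 and 5.7e-05).

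RELA, the main activating subunit, was 8.14 and 8.11 in SK-Hep1 knockdown cells, against 8.41 and 8.28 in controls (-0.22 ± 0.0695, adjusted p = 0.0573), which did not pass the threshold although the groups did not overlap. In Huh7 RELA rose, at 8.46 and 8.44 in knockdown cells, against 7.99 and 8.02 in controls (0.45 ± 0.0695, 1.36-fold, adjusted p = 0.000741). NFKB2, whose processed product pairs with RELB, was 8.80 and 8.90 in SK-Hep1 knockdown cells, against 9.07 and 9.02 in controls (-0.20 ± 0.0677, adjusted p = 0.0739). In Huh7 NFKB2 rose by a small step, at 9.06 and 9.07 in knockdown cells, against 8.80 on both control arrays (0.27 ± 0.0677, adjusted p = 0.0108). Leaving out any 1 of the 4 Huh7 arrays ended that call, with an adjusted p between 0.0558 and 0.0666. BCL3, an IkB-like protein that works in the nucleus with NF-kB subunits, fell in SK-Hep1, at 10.08 and 9.95 in knockdown cells, against 10.51 and 10.60 in controls (-0.54 ± 0.0717, adjusted p = 0.000962). In Huh7 BCL3 was 10.28 and 10.30 in knockdown cells, against 10.30 and 10.32 in controls, with groups that overlapped slightly (-0.02 ± 0.0717, adjusted p = 0.854). REL, NFKBIE and NFKBIZ were called in neither line, with differences of -0.15 to 0.22 in SK-Hep1 and 0.09 to 0.35 in Huh7.

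**Figure D5:**
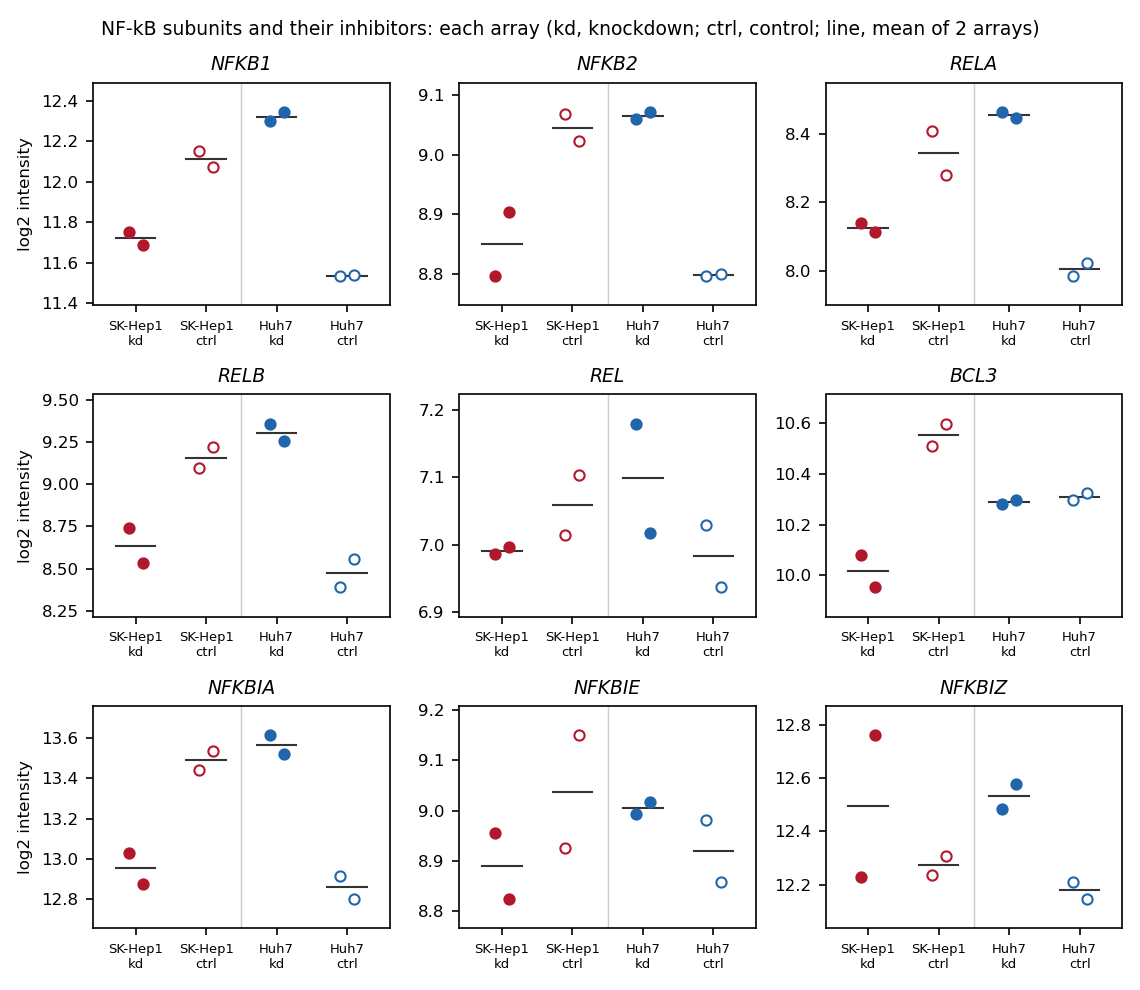
Log2 intensity of the 9 NF-kB subunits and regulators on each array (filled points for knockdown and open points for control, SK-Hep1 in red and Huh7 in blue, lines for the mean of 2 arrays). For NFKB1, NFKBIA and RELB the knockdown arrays lie below the controls in SK-Hep1 and above them in Huh7, with differences between the lines of -1.18, -1.24 and -1.36.

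Among the feedback and adaptor genes, 1 of 5 rose in SK-Hep1 and 4 of 5 in Huh7, where 8.31% and 19.4% of all genes tested rose. TNFAIP3, which encodes the ubiquitin-editing inhibitor A20, was 10.66 and 10.56 in SK-Hep1 knockdown cells, against 10.64 and 10.93 in controls (-0.18 ± 0.093, adjusted p = 0.222). In Huh7 it rose, at 11.16 and 11.18 in knockdown cells, against 10.13 and 10.14 in controls (1.03 ± 0.093, 2.04-fold, adjusted p = 2.66e-05). The SK-Hep1 groups overlapped and the Huh7 groups were far apart. TNIP1, which encodes a partner of A20, rose in both lines. It was 11.28 and 11.23 in SK-Hep1 knockdown cells, against 10.80 and 10.64 in controls (0.53 ± 0.0761, 1.45-fold, adjusted p = 0.00144). In Huh7 TNIP1 was 11.38 on both knockdown arrays, against 10.49 and 10.60 in controls (0.84 ± 0.0761, 1.79-fold, adjusted p = 2.76e-05).

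MYD88, the adaptor shared by most Toll-like receptors and the IL-1 receptor, was 8.76 and 8.71 in SK-Hep1 knockdown cells, against 8.81 and 8.95 in controls (-0.14 ± 0.071, adjusted p = 0.201). In Huh7 MYD88 rose, at 9.17 and 9.14 in knockdown cells, against 8.52 and 8.51 in controls (0.64 ± 0.071, 1.55-fold, adjusted p = 0.000104). IRAK2 belongs to the kinase family that MYD88 recruits. It was 10.11 and 10.39 in SK-Hep1 knockdown cells, against 10.57 and 10.44 in controls (-0.26 ± 0.101, adjusted p = 0.109). In Huh7 IRAK2 rose, at 10.66 and 10.82 in knockdown cells, against 10.06 and 9.99 in controls (0.72 ± 0.101, 1.65-fold, adjusted p = 0.000413). For both, all SK-Hep1 knockdown arrays were below the controls without passing the threshold, and the lines differed, by -0.78 for MYD88 and -0.97 for IRAK2 (adjusted p = 0.000412 and 0.000834). TRAF1, a signalling scaffold of TNF receptors, was called in neither line (0.12 in SK-Hep1 and -0.06 in Huh7) and lay just above the filter at a mean of 7.14.

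CD14, the co-receptor that hands bacterial lipopolysaccharide to Toll-like receptor 4, was the only tested member that rose in SK-Hep1 and fell in Huh7. It rose in SK-Hep1, at 9.98 and 9.56 in knockdown cells, against 8.67 and 8.79 in controls (1.04 ± 0.119, 2.06-fold, adjusted p = 0.000398). It fell in Huh7, at 8.64 and 8.78 in knockdown cells, against 9.75 and 9.80 in controls (-1.07 ± 0.119, 2.10-fold lower, adjusted p = 0.000103). The groups stood apart in both lines, and the difference of 2.11 ± 0.168 between them (adjusted p = 2.13e-05) was the largest of the 36. Its probes above the filter gave the same direction, from 0.52 to 1.04 in SK-Hep1 and from -1.07 to -0.45 in Huh7. TLR2 and TLR4 were below the filter at means of 6.31 and 6.46, with untested differences between -0.05 and 0.13.

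CD14 is made by monocytes and macrophages as well as by liver cells, so immune markers are given beside it. Of 14 listed, 6 were above the filter, and PTPRC, CD163, MARCO and MPO were not. In SK-Hep1 CD68, a macrophage and lysosome marker, rose (0.61 ± 0.0691, adjusted p = 0.000378) and the other 5 were not called, with a median of -0.03 over the 6. CD68 was not called in Huh7 (-0.15, limma adjusted p = 0.12). Its other probes above the filter gave 0.74 and 0.26 in SK-Hep1 and, in the same order, -0.52 and 0.08 in Huh7. In Huh7 ITGAM, an integrin of myeloid cells, rose by 0.31 (adjusted p = 0.017), CD3D, a T-cell receptor subunit, fell by 0.42 (adjusted p = 0.000968), and the median was -0.10. ITGAM and CD3D were named after their values were seen. CD3D lay next to the filter, at a mean of 7.18, which limits how far its fall can be read. The summed log2 level of the 13 named ones was 96.55 to 96.81 in SK-Hep1 knockdown cells, against 96.38 to 96.46 in SK-Hep1 controls, and 96.11 to 96.81 in Huh7 knockdown cells, against 96.70 to 96.96 in Huh7 controls. Of 9 endothelial markers, 1 was above the filter, and of 10 hepatocyte markers, 8 were. The endothelial one, PECAM1, was not called in SK-Hep1 (-0.17, limma adjusted p = 0.109) and fell in Huh7 (-0.32, adjusted p = 0.00355). Since the lines hold nearly equal gene means, being above the filter does not show that a marker is present in a given line. Of the 8 hepatocyte markers above it, SERPINA1 and AFP rose in SK-Hep1, by 0.58 and 0.48 (adjusted p = 0.00138 and 0.00347). In Huh7 APOA1 rose by 0.99 (adjusted p = 1.15e-05), while APOB and TF fell by 0.24 and 0.22 (adjusted p = 0.0172 and 0.0403). PECAM1, AFP, APOB and TF were named after their values were seen. The called shares were 16.7% of the immune and 25.0% of the hepatocyte markers in SK-Hep1, against 16.8% of all genes tested. In Huh7 they were 33.3% and 37.5%, against 38.9%. The part of these markers in the CD14 result was not tested. The arrays read RNA of whole cultures, so fewer cells with a transcript and less of it per cell cannot be told apart.

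The 4 remaining targets covered an antioxidant enzyme, a prostaglandin enzyme and proteins that TNF induces. SOD2, the mitochondrial superoxide dismutase, rose in both lines. It was 13.69 and 13.89 in SK-Hep1 knockdown cells, against 12.89 and 12.73 in controls (0.98 ± 0.0917, 1.97-fold, adjusted p = 0.00012). In Huh7 SOD2 was 13.73 and 13.64 in knockdown cells, against 13.02 and 12.86 in controls (0.74 ± 0.0917, 1.67-fold, adjusted p = 0.00019). The 2 rises did not differ at the threshold (0.24 ± 0.13, adjusted p = 0.193).

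TNFAIP2, named for its induction by TNF, had the largest fall of the members in SK-Hep1, at 8.40 and 8.48 in knockdown cells, against 9.31 and 9.16 in controls (-0.79 ± 0.0788, 1.73-fold lower, adjusted p = 0.000178). In Huh7 it rose, at 8.96 and 9.07 in knockdown cells, against 8.61 and 8.67 in controls (0.37 ± 0.0788, adjusted p = 0.0042). PTGS2, which encodes the inducible cyclooxygenase COX-2, moved in the same opposed way. It was 8.11 and 8.16 in SK-Hep1 knockdown cells, against 8.40 and 8.76 in controls (-0.44 ± 0.104, adjusted p = 0.0171). That fall was -0.26 and not called without control array 2 (adjusted p = 0.0788). In Huh7 PTGS2 was 8.68 and 8.66 in knockdown cells, against 7.97 and 7.90 in controls (0.73 ± 0.104, 1.66-fold, adjusted p = 0.000452). ICAM1, the adhesion molecule that binds leukocyte integrins, was called in neither line (0.03 in SK-Hep1 and 0.15 in Huh7).

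Where a tested member had several probes above the filter, they ran in the same direction in each line. CXCL6 gave 1.10 to 1.55 in SK-Hep1 and 0.70 to 0.73 in Huh7, SOD2 gave 0.98 to 1.13 and 0.74 to 1.00, and IL32 gave 0.37 to 0.47 and 0.86 to 0.99. CXCL8 probes gave 0.02 to 0.08 in SK-Hep1 and 1.76 to 1.79 in Huh7. PTGS2 probes gave -0.44 to -0.30 in SK-Hep1 and 0.34 to 0.73 in Huh7. The size of a difference thus moved with the probe.

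Other genes of the pathway were described from lists that hold no members and were also chosen with earlier results of these data known. Of 34 tested genes of the NF-kB signalling machinery (kinases, adaptors and ubiquitin ligases, of 41 listed), 1 rose and 1 fell in SK-Hep1 (median -0.01), and 13 rose and 2 fell in Huh7 (median 0.12). These calls made up 5.88% of the 34 in SK-Hep1, against 16.8% of all genes tested, and 44.1% in Huh7, against 38.9%. IKBKE, a non-canonical IkB kinase, stood 0.24 ± 0.0908 higher in SK-Hep1, short of the threshold (adjusted p = 0.0912), and rose by 1.05 ± 0.0908 in Huh7 (adjusted p = 2.1e-05). The SK-Hep1 calls, named after their values were seen, were NLRP3, the inflammasome sensor (0.36, adjusted p = 0.0165), and BIRC2, a ubiquitin ligase of TNF receptor signalling (-0.38, adjusted p = 0.00599). TAB1 and RBCK1, likewise named afterwards, fell in Huh7 by 0.27 and 0.26 (adjusted p = 0.0136 and 0.0086).

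Among 10 tested receptors of the ligands in the list, of 19 listed, 3 rose and 3 fell in Huh7 (median -0.10). The called share was 60.0% in Huh7, against 38.9% of all genes tested, and 0.0% in SK-Hep1, against 16.8%. CSF3R, the receptor of CSF3, differed by 0.11 in SK-Hep1 knockdown cells (adjusted p = 0.351) and fell by 0.88 in Huh7 (SE 0.0779, adjusted p = 2.46e-05). Its probe lay next to the filter, at a mean of 7.10, and was below it on the Huh7 knockdown arrays, at 6.72 and 6.62. Another CSF3R probe, below the filter, gave -0.20 in Huh7. Both limit how far the fall of CSF3R can be read. In SK-Hep1 0 receptors passed the threshold in limma, 0 did so at an unadjusted p under 0.05, and the median was 0.04. Named after their values were seen, IL6ST, the signalling receptor of the IL-6 family, rose by 0.29 in Huh7 (adjusted p = 0.00677) and LIFR fell by 0.33 (adjusted p = 0.00986).

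Of 19 tested other cytokine and chemokine genes, of 36 listed, 3 rose and 1 fell in SK-Hep1 (median 0.06), and 5 rose and 2 fell in Huh7 (median 0.08). Calls made up 21.1% of the 19 in SK-Hep1 and 36.8% in Huh7, near the 16.8% and 38.9% of all genes tested. In Huh7 LTB, a TNF family ligand of the non-canonical pathway, rose by 1.69 ± 0.0957 (adjusted p = 1.33e-06) and CXCL10, an interferon-induced attractant of T cells, by 1.38 ± 0.0665 (adjusted p = 6.25e-07). In SK-Hep1 these genes had differences of -0.15 and 0.03 and neither was called. CCL5, an attractant of T cells and monocytes, rose by 1.16 ± 0.124 in SK-Hep1 (adjusted p = 0.000295), where CCL26 also rose by 0.70 (adjusted p = 0.00691, or 0.0629 without control array 1). IL12A, a subunit of interleukin-12, rose by 0.95 in SK-Hep1 (adjusted p = 0.00456, or 0.60 in size without knockdown array 12) and fell by 0.63 in Huh7 (adjusted p = 0.0133), a fall that was not called without Huh7 control array 1, control array 2 or knockdown array 3. TGFB2, a TGF-beta ligand, rose by 1.04 ± 0.112 in Huh7 (adjusted p = 8.44e-05). TNF, a main inducer of NF-kB, was named after its values were seen: it fell by 0.30 in SK-Hep1 (adjusted p = 0.0175) and rose by 0.32 in Huh7 (adjusted p = 0.00578).

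Of 22 tested other NF-kB targets, of 27 listed, 5 rose and 7 fell in SK-Hep1 (median 0.02), and 11 rose and 3 fell in Huh7 (median 0.20). That was 54.5% called in SK-Hep1 and 63.6% in Huh7, against 16.8% and 38.9% of all genes tested. The choice of this list with earlier results known limits how far these shares can be read. MMP9, a gelatinase, rose by 1.33 ± 0.122 in SK-Hep1 (adjusted p = 0.00011), and GADD45B, a stress-response gene, fell by 0.98 (SE 0.0934, adjusted p = 0.000143). Complement C3 rose by 0.71 in SK-Hep1 (adjusted p = 0.000988) and fell by 0.38 in Huh7 (adjusted p = 0.0104). Complement factor CFB fell in both lines, by 0.25 in SK-Hep1 (adjusted p = 0.0409) and by 1.09 in Huh7 (adjusted p = 4.18e-06). NUAK2, a stress kinase, and JUNB, an AP-1 subunit, had the opposed pattern. NUAK2 fell by 0.63 in SK-Hep1 and rose by 0.99 in Huh7, and JUNB fell by 0.51 in SK-Hep1 and rose by 0.47 in Huh7 (adjusted p = 0.00195, 4.03e-05, 0.00209 and 0.00106). ZC3H12A, the nuclease Regnase-1 that degrades cytokine transcripts, rose in both lines, by 0.53 in SK-Hep1 and 0.54 in Huh7 (adjusted p = 0.00239 and 0.000708). TNFAIP8 (1.06), VCAM1 (0.79), SERPINA3 (0.65) and CD83 (0.64) rose in Huh7, with adjusted p-values of 9.16e-06, 0.000306, 0.00383 and 8.45e-05. TNFAIP8 also rose in SK-Hep1, by 0.28 (adjusted p = 0.041). RIPK4, a kinase that can activate NF-kB, fell by 0.56 in SK-Hep1 (adjusted p = 0.0218). The RIPK4 call was lost without knockdown array 12, control array 1 or control array 2, with differences of -0.30, -0.53 and -0.585.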

How the data were processed

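Gene expression was measured on 8 Illumina arrays, from 0.55 µg of total RNA per sample per the labels' protocols. The authors deposited log2 intensities of 47319 probes, made with GenomeStudio 2011.1 per the submitters' processing notes. The sources used here do not say how background was treated or how the arrays were normalized. The signals before normalization were left unused, since their 16 value columns carry running numbers that match no label, so detection p-values could not be applied. The number of arrays limits the precision.

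Probes were named through the platform annotation: 30110 had 1 symbol, 8 had several and 17201 had none, and 30071 named probes matched the RefSeq gene table. Probes were kept above 7.003, the 95th percentile of 637 probes for beta-defensins, keratin-associated proteins and receptors for smell, taste and pheromones, and the brightest probe stood for its gene. R 4.3.3 and limma 3.58.1 tested the differences (two-sided, lmFit and eBayes on 4 group means, 4 residual degrees of freedom), with p-values adjusted by Benjamini-Hochberg over 12411 genes and a threshold of 0.05. The procedure was tested on simulated data. The members and lists were chosen with earlier results of these data known. Members called in a line or in the difference between lines are named, and list genes with a called log2 difference of at least 0.5, up to 12 per line. Alternatives changed the filter, the probe rule, the normalization, the weights and the arrays used. Promoter sequences come from RefSeq.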

Additional observations from a re-analysis of the deposited data

Results flagged for a closer look

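For 22 of the 36 tested members, the knockdown difference in SK-Hep1 and that in Huh7 were themselves unlike, at an adjusted p under 0.05 in limma's interaction test. Of all genes tested, 31.3% were called in this test. SMARCB1 was left at 44.7% in SK-Hep1 and 32.0% in Huh7, and whether differences within a line were rescaled is unknown. The part of either in these results was not tested. Values are SK-Hep1 difference minus Huh7 difference on the log2 scale.

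The members with the higher difference in SK-Hep1 were CD14 (2.11), CSF3 (1.79), CXCL6 (0.85) and IL1B (0.67). CD14 had opposite calls in the lines, CXCL6 rose in both, and CSF3 and IL1B were called in SK-Hep1 without passing the threshold in Huh7.

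Among the ligands the value was lower for CXCL8 (-1.73), CCL2 (-1.19), CXCL2 (-1.15), CCL20 (-1.003), CX3CL1 (-0.55), CXCL5 (-0.48) and IL32 (-0.40). CCL2 and IL32 rose in both lines, by more in Huh7, and these were the only members of the 22 whose call was lost in a fit that left out an array or changed a setting.

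Among the subunits and regulators of NF-kB it was lower for RELB (-1.36), NFKBIA (-1.24), NFKB1 (-1.18), RELA (-0.67), BCL3 (-0.52) and NFKB2 (-0.46). The remaining lower values were those of TNFAIP3 (-1.21), PTGS2 (-1.17), TNFAIP2 (-1.17), IRAK2 (-0.97) and MYD88 (-0.78). Whether a single array lies far from its group could not be asked of groups of 2 arrays.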

How the results depend on the processing

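No paired analysis was possible because the knockdown and control groups share no replicate numbers within a line. A slide block and a background correction by detection p could not be run, because no source used here gives slides or usable detection values. The count of members that rose in SK-Hep1 was 7 to 11 over the fits that left out an array, of those that fell 8 to 11, and in Huh7 19 to 25 rose and 2 fell. For the difference between lines, 4 were higher and 16 to 21 lower. Calls held in every setting tried for 14 of 18 members in SK-Hep1, 20 of 25 in Huh7 and 20 of 22 for the difference between lines. The exceptions were CCL2, CXCL2, IL6 and PTGS2 in SK-Hep1, CCL20, CSF1, CXCL5, IL6 and NFKB2 in Huh7, and CCL2 and IL32 for the difference. Among settings other than leaving out arrays, array weights and fitting each line alone ended the SK-Hep1 call of CXCL2 (adjusted p = 0.0644 and 0.0846), and the normexp correction and fitting alone that of CCL2 (0.0712 and 0.0616). Counts over all genes moved more. In SK-Hep1, 2091 genes were called, against 1198 with array weights, 1086 with each line fitted alone and 927 to 2443 when an array was left out, with 927 without control array 1 and 1215 without control array 2. In Huh7, 4833 were called, against 6359 with array weights, 6066 with each line fitted alone and 2877 to 5606 when an array was left out, the lowest 4 counts (2877, 2960, 3133 and 3033) being those without Huh7 control array 1, control array 2, knockdown array 3 and knockdown array 4. For the difference, 3890 were called, and 2530 to 4491 when an array was left out. The cause was not tested. Among the members, only uncalled differences changed sign, each when an array was left out. Their ranges were -0.20 to 0.25 for CXCL8, -0.034 to 0.0011 for LIF, -0.042 to 0.49 for NFKBIZ and -0.11 to 0.17 for ICAM1 in SK-Hep1, and -0.011 to 0.22 for IL1A and -0.19 to 0.081 for TRAF1 in Huh7. For the difference they were -0.037 to 0.24 for IL6, -0.070 to 0.10 for IL18, -0.39 to 0.13 for NFKBIZ and -0.26 to 0.025 for ICAM1. Without knockdown array 12, the SMARCB1 difference between lines was 0.30. REL, TRAF1 and CSF1 had the lowest means of the tested members, next to the filter, which limits how far their differences can be read.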
